A study of Homo sapiens with 6 samples.

Results

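Activins and inhibins are secreted dimers of the TGF-β superfamily, built from β subunits alone (activins) or from 1 β subunit with the α subunit (inhibins). Activins bind a type II receptor, which recruits and phosphorylates a type I receptor, and the type I receptor passes the signal to SMAD2 and SMAD3. Follistatin and follistatin-like 3 bind activins outside the cell and block them, whereas inhibins occupy the type II receptor. The liver is a main source of the βC and βE subunits, and activins are known there as restraints on hepatocyte growth.

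The expression of 10 genes of this system was examined in Hep3B, an established human hepatocellular carcinoma cell line. The genes were the β subunits *INHBA*, *INHBB*, *INHBC* and *INHBE*, the α subunit *INHA*, the antagonists *FST* and *FSTL3*, the type I receptor *ACVR1B* and the type II receptors *ACVR2A* and *ACVR2B*. In Hep3B-KD cells a lentivirus delivered a short hairpin RNA that targets *DAGLA*, whose product, diacylglycerol lipase alpha, makes the endocannabinoid 2-arachidonoylglycerol. Hep3B-Con cells carried a control lentivirus, named as a control hairpin in the sample names and as an empty vector in the design text, and both populations were selected with puromycin. RNA of 3 Hep3B-Con and 3 Hep3B-KD samples was sequenced, and all 6 libraries come from 1 cell line and 1 hairpin. The design text calls the 3 samples of a group biological replicates, but no source used here states that they were separate cultures, so the p-values measure the spread between these samples.

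All 10 genes were found, out of 29908 in the deposited table. They were selected on the comparison of Hep3B-KD with Hep3B-Con itself, because *INHBB* had the largest decrease among well-counted genes, so their differences between the groups are given as a description, without a test. Expression is given as FPKM, the reads of a gene scaled to its length and to the reads of the library. The length is that of all annotated exons of the gene together, which can exceed the transcript in use. Levels, shares and ratios across genes are therefore approximate. The reads behind each value were recovered from the FPKM values, and the libraries held 15861039 to 17572714 reads. *DAGLA* itself, the target of the hairpin, fell from 9.28 ± 0.228 to 4.62 ± 0.164 FPKM (SD, n = 3; limma with Benjamini-Hochberg adjustment, adjusted p = 5.25e-06). The 8 hepatocyte markers summed to 2559 to 2608 FPKM in Hep3B-Con and to 4050 to 4067 FPKM in Hep3B-KD, most of it *ALB*. They did not move together, since *FGB* fell from 19.5 to 9.96 FPKM and *HNF4A* from 56.2 to 43.9 FPKM (limma, adjusted p = 5.73e-06 and 1.64e-05). For 6 fibroblast markers the sums were 9.28 to 10.2 FPKM in Hep3B-Con and 5.48 to 5.96 FPKM in Hep3B-KD. *LUM* (6.03 and 3.29 FPKM), *PDGFRB* (2.67 and 2.11) and *COL1A1* (0.745 and 0.271) made up most of them, with *COL3A1* and *DCN* near 0. In the same order, the sums were 0.194 to 0.217 and 0.278 to 0.385 FPKM for 4 endothelial markers. They were 0.800 to 1.36 and 0.799 to 0.983 FPKM for the 3 leukocyte markers analysed. Whether these shifts contribute to the differences described here was not tested, and in such bulk samples fewer cells expressing a gene and less RNA per cell cannot be told apart.

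The hairpin and its guide strand are shown first, because a small RNA can also act on messages that carry only a match to its seed. The 19-base target lies in the coding part of exon 18 of 20 of *DAGLA* (GRCh38, chr11:61740504-61740522, plus strand), and *DAGLA* was the single gene among 19713 protein-coding genes whose transcripts held all 19 bases. The capitals mark bases 2 to 8 of the guide (the seed) and the bases that pair with them in the target.
shDAGLA target: gcgacaacaagGCCTTCAa
Guide strand: tTGAAGGCcttgttgtcgc
Each gene was read in its transcript with the longest annotated 3′ UTR, and coding sequences of other transcripts were not searched. Of the 10 genes, only *ACVR2B* held a match to the seed in that 3′ UTR, and 0 of 10 held one in the coding sequence. Among 11189 expressed genes with a 3′ UTR of at least 50 bases, 14.6% had such a match in the 3′ UTR and 18.1% in the coding sequence. The site of *ACVR2B* starts at base 5493 of a 3′ UTR of 9810 bases, and it is shown with the seed match in capitals.
ACVR2B site: ggccctgcactGCCTTCAtttctctaggg
*ACVR2B* was among the genes with a higher level in Hep3B-KD. *INHBB*, with the largest difference of the 10, had no match in either region. Matches to the other strand of the hairpin were not searched, and whether the hairpin acted on any of these genes through its seed was not tested.

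The β subunits split in direction. *INHBB* and *INHBE*, the β-subunit genes with the highest levels in Hep3B-Con, were lower in Hep3B-KD, while the scarce *INHBC* was higher. *INHBB* encodes the βB subunit of activin B and inhibin B (ENSG00000163083, GRCh38, chr2:120346143-120351808). Its level was 25.6, 26.0 and 25.8 FPKM in the Hep3B-Con libraries and 1.67, 1.48 and 1.22 FPKM in the Hep3B-KD libraries. These values rest on 1442, 1449 and 1376 reads against 85, 76 and 65 reads, and the groups lie far apart. The mean was thus 17.7-fold lower in Hep3B-KD, with a difference of -4.07 ± 0.102 (SE) on the log2(FPKM + 0.1) scale.

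*INHBB* ranked first among the decreases of the 10416 genes that averaged 100 reads or more. Next in rank, though with smaller decreases, came *POLE4* at rank 3 and *SMOX* at rank 4, with differences of -3.05 and -2.83 on the same scale. *INHBE* came at rank 151 and *FSTL3* at rank 397 of that order. *POLE4* and *SMOX* were among the 5 genes whose centred log2 levels over the 6 libraries lay closest to those of *INHBB*. Their Euclidean distances were 1.30 and 1.55. *MIR6859-1* and *MIR3174*, also among these 5 with distances of 1.05 and 1.17, had a mean of 1 read each. With 2 groups and little spread within them, such a distance largely repeats the size of the decrease and adds no separate result.

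*INHBE* encodes the βE subunit, a hepatokine gene with high expression in the liver (ENSG00000139269, GRCh38, chr12:57452323-57459280). It had the highest level of the 10 genes in both groups, at 87.1, 84.5 and 82.6 FPKM in Hep3B-Con and 34.5, 33.6 and 33.7 FPKM in Hep3B-KD. The Hep3B-KD values were tightly grouped and all below those of Hep3B-Con. The mean was 2.50-fold lower, with a difference of -1.32 ± 0.0259 (SE) on the log2 scale.

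*INHBC*, the gene of the βC subunit, lies 1494 bases upstream of *INHBE* on the same strand (ENSG00000175189, GRCh38, chr12:57434760-57450828). In contrast to its neighbour, it was higher in Hep3B-KD. Its level was 0.69, 1.07 and 0.60 FPKM in Hep3B-Con and 3.17, 2.72 and 2.84 FPKM in Hep3B-KD. The lowest Hep3B-KD library exceeded the highest Hep3B-Con library, although the counts were modest, with 24, 37 and 20 reads against 100, 87 and 94 reads. The mean was 3.70-fold higher, with a difference of 1.80 ± 0.199 (SE) on the log2 scale, or 1.14 with a pseudocount of 1.

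*INHBA*, the gene of the βA subunit of activin A, was scarce in Hep3B cells (ENSG00000122641, GRCh38, chr7:41667168-41705834, minus strand). Its level was 0.281, 0.222 and 0.246 FPKM in Hep3B-Con and 0.281, 0.382 and 0.421 FPKM in Hep3B-KD, from 32 to 58 reads. The groups overlapped, and with a mean of 0.306 FPKM the gene stayed under the minimum of 0.5 FPKM set for the fit. Without that minimum its difference was 0.39 on the log2 scale.

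**Figure D1:**
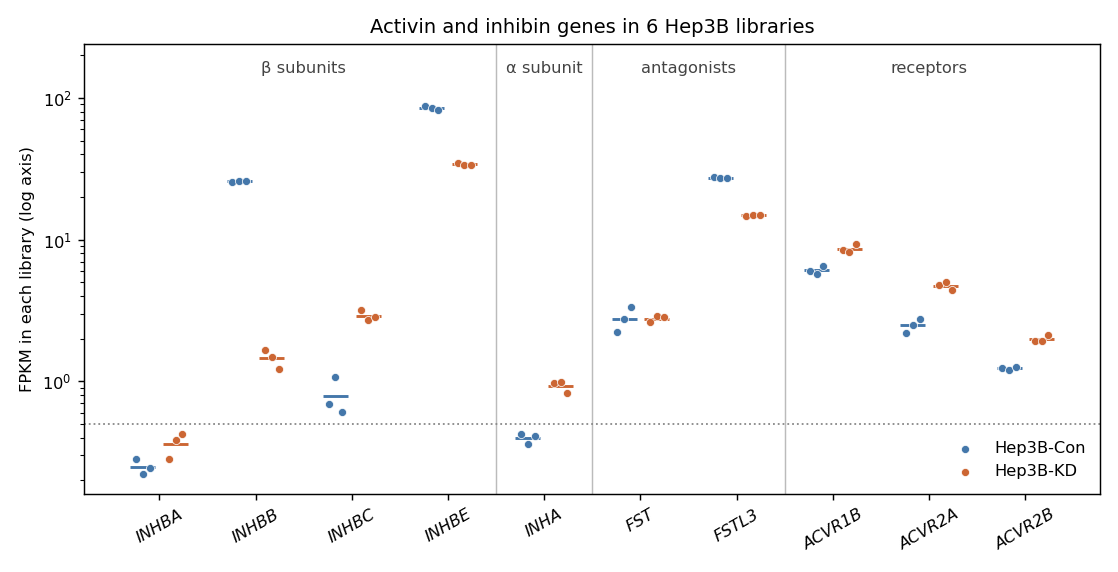
FPKM of the 10 genes in each of the 6 libraries on a log axis, with a bar at the mean of each group of 3 and a dotted line at the minimum mean of 0.5 FPKM. *INHBB* went from near the level of *FSTL3* in Hep3B-Con to 1.22 to 1.67 FPKM in Hep3B-KD, while the values of *FST* and *INHBA* overlapped between the groups.

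Summed over the 4 genes, β-subunit messages amounted to 112 ± 2.25 FPKM in Hep3B-Con and 38.7 ± 0.819 FPKM in Hep3B-KD (SD, n = 3). The composition of this sum changed as well. *INHBB* made up 23.1% ± 0.560 of it in Hep3B-Con and 3.76% ± 0.517 in Hep3B-KD. *INHBE* went from 75.9% ± 0.599 to 87.8% ± 0.619, and *INHBC* from 0.704% ± 0.220 to 7.52% ± 0.441. The share of *INHBA* was 0.224% ± 0.0245 and 0.937% ± 0.204. *INHBB* was next in level to *INHBE* among the β subunits in Hep3B-Con, and *INHBC* was next to it in Hep3B-KD. The ratio of *INHBE* to *INHBB* was 3.28 ± 0.105 in Hep3B-Con and 23.7 ± 3.55 in Hep3B-KD.

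**Figure D2:**
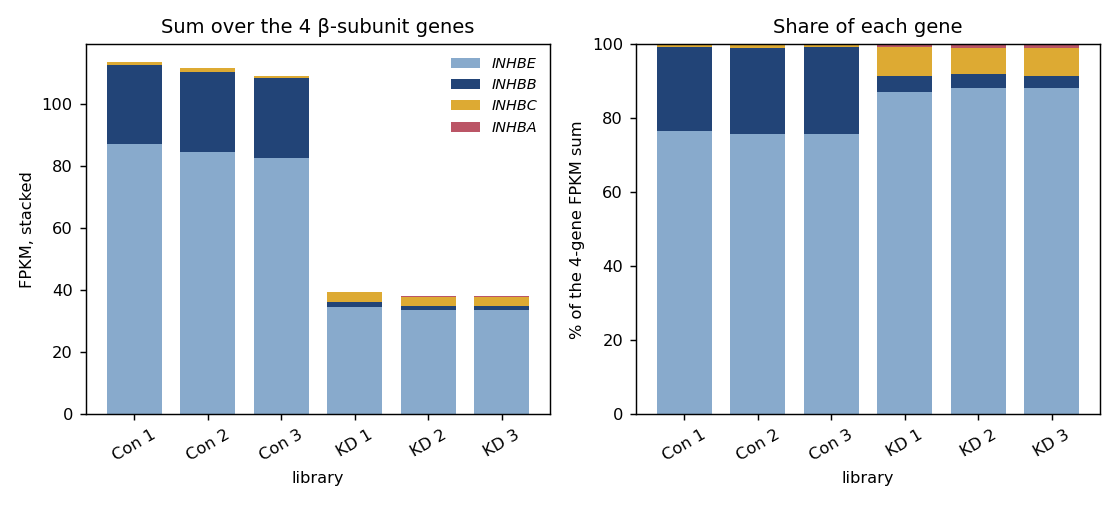
The left panel stacks the FPKM of *INHBE*, *INHBB*, *INHBC* and *INHBA* in each library, and the right panel gives each gene as a percentage of that sum. The stacks stand near 112 FPKM in Hep3B-Con and 38.7 FPKM in Hep3B-KD, and the *INHBB* share narrows from 23.1% to 3.76% while the *INHBC* share widens to 7.52%.

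*INHA* encodes the α subunit that turns a β subunit into an inhibin (ENSG00000123999, GRCh38, chr2:219569162-219575713). Its level was 0.42, 0.36 and 0.41 FPKM in Hep3B-Con and 0.97, 0.99 and 0.83 FPKM in Hep3B-KD. All Hep3B-KD values were above those of Hep3B-Con, but they rest on 11 to 13 reads against 24 to 28 reads. The mean was 2.34-fold higher and the log2 difference 1.05 ± 0.196 (SE), which varied from 0.46 with a pseudocount of 1 to 1.20 with a pseudocount of 0.01. The gene passed the minimum of 0.5 FPKM only through the Hep3B-KD group. Its span overlaps that of the antisense gene *OBSL1*, and the 2 genes share 0 exon bases. *OBSL1* had 1584 to 1713 reads in Hep3B-Con and 2031 to 2213 reads in Hep3B-KD. Whether any reads of *OBSL1* were counted for *INHA* was not tested.

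The antagonists differed from each other. *FSTL3*, which encodes the secreted follistatin-like 3 (ENSG00000070404, GRCh38, chr19:676365-683399), was the more abundant of the pair. Its level was 27.5, 27.1 and 27.2 FPKM in Hep3B-Con and 14.6, 15.0 and 14.9 FPKM in Hep3B-KD, with no overlap and little spread within a group. The mean was 1.84-fold lower, with a difference of -0.87 ± 0.0247 (SE) on the log2 scale.

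*FST*, the gene of follistatin (ENSG00000134363, GRCh38, chr5:53480409-53487134), stood at 2.22, 2.75 and 3.32 FPKM in Hep3B-Con and at 2.61, 2.87 and 2.82 FPKM in Hep3B-KD. The Hep3B-KD values fell inside the range of the Hep3B-Con values. Its log2 difference was 0.02 ± 0.141 (SE), and it turned to -0.08 when the libraries were centred on their median log ratios and to -0.20 with quantile normalization. *FSTL3* messages were 10.1 ± 2.10 times those of *FST* in Hep3B-Con and 5.37 ± 0.197 times in Hep3B-KD. The ratio to *INHBB* differed in the other direction, as *FSTL3* stood at 1.06 ± 0.0157 times *INHBB* in Hep3B-Con and at 10.4 ± 1.74 times in Hep3B-KD.

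The 3 receptors were all higher in Hep3B-KD. *ACVR1B*, the type I activin receptor also called ALK4 (ENSG00000135503, GRCh38, chr12:51951667-51997078), was the most abundant of them. Its level was 5.99, 5.67 and 6.53 FPKM in Hep3B-Con and 8.39, 8.20 and 9.28 FPKM in Hep3B-KD. The groups did not overlap, and the mean was 1.42-fold higher, with a log2 difference of 0.50 ± 0.0702 (SE).

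*ACVR2A*, a type II activin receptor (ENSG00000121989, GRCh38, chr2:147844517-147930826), stood at 2.19, 2.48 and 2.77 FPKM in Hep3B-Con and 4.79, 5.05 and 4.38 FPKM in Hep3B-KD. It had the largest difference of the 3 receptors, 1.91-fold or 0.91 ± 0.0982 (SE) on the log2 scale. This value is uncertain, because 430 exon bases of *ACVR2A* (6.35% of its exon length) are shared with *ORC4* on the opposite strand and the sources do not say whether counting used the strand. *ORC4* had 712 to 849 reads in Hep3B-Con and 998 to 1085 reads in Hep3B-KD, against 261 to 312 and 492 to 549 reads for *ACVR2A*.

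*ACVR2B*, the other type II activin receptor (ENSG00000114739, GRCh38, chr3:38453851-38493142), had the lowest FPKM of the 3. Its annotated exons sum to 15744 bases against 6770 for *ACVR2A*, and in Hep3B-Con *ACVR2B* had more reads (330 to 341 against 261 to 312). It stood at 1.23, 1.21 and 1.26 FPKM in Hep3B-Con and 1.93, 1.92 and 2.13 FPKM in Hep3B-KD. All Hep3B-KD values lay above the Hep3B-Con values, with a 1.62-fold higher mean and a log2 difference of 0.65 ± 0.0896 (SE), which was 0.41 with quantile normalization and 0.42 with a pseudocount of 1.

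**Figure D3:**
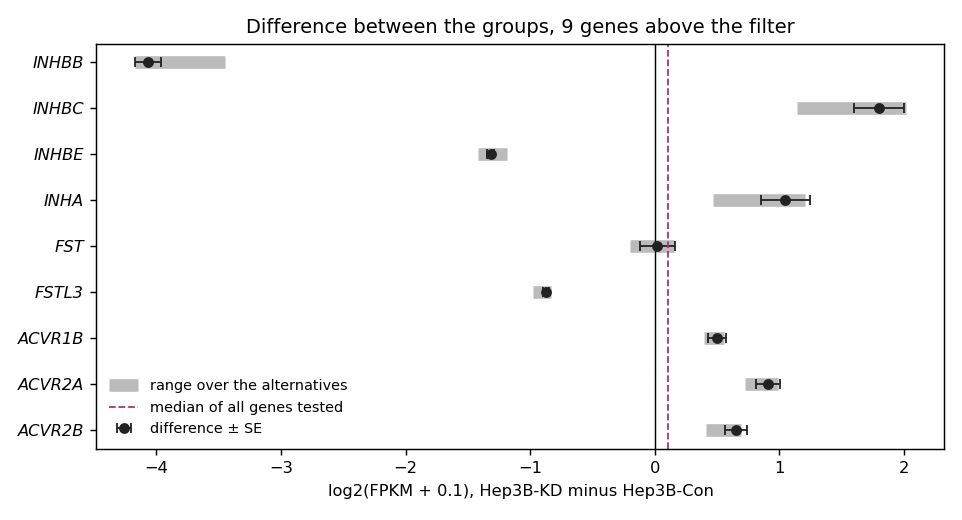
Difference in log2(FPKM + 0.1), Hep3B-KD minus Hep3B-Con, for the 9 genes above the minimum of 0.5 FPKM. Points with bars give the value ± SE (n = 3 per group). Grey bands give the range over the 16 alternative analyses (15 for *INHA*), and the dashed line the median of all genes tested (0.11). The band of *FST* crosses 0, and that of *INHBB* runs from -4.17 to -3.45.

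The order of the levels in FPKM was not the same in the 2 groups. In Hep3B-Con it ran from *INHBE* through *FSTL3*, *INHBB*, *ACVR1B*, *FST*, *ACVR2A*, *ACVR2B*, *INHBC* and *INHA* down to *INHBA*, and only *FST* and *ACVR2A* overlapped as neighbours. In Hep3B-KD it ran from *INHBE* through *FSTL3*, *ACVR1B*, *ACVR2A*, *INHBC*, *FST*, *ACVR2B*, *INHBB* and *INHA* down to *INHBA*, and only *INHBC* and *FST* overlapped. *INHBB* thus stood at rank 3 in Hep3B-Con and at rank 8 in Hep3B-KD.

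As a description only, 5 of the 9 genes above the minimum lay past an adjusted p under 0.05 on the higher side and 3 on the lower side, *INHA* among the former through its Hep3B-KD level alone. Among all 14221 genes that entered the fit, 36.1% were called higher and 23.8% lower, and nothing is read from the count of genes that were chosen from the same contrast. With a fold of at least 2 as well, 2 were higher (*INHBC* and *INHA*) and 2 lower (*INHBB* and *INHBE*), beside 5.89% and 2.94% of all genes. The groups did not overlap in 8 of the 9 genes and in 66.9% of all genes. The median log2 difference of the 9 was 0.50, beside 0.11 over all genes. Centring the libraries on their median log ratios moved the median of all genes to 0.0059, and changed the split of all calls from 5133 higher and 3388 lower to 4064 higher and 4308 lower.

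The sequence before the transcription start was read for the 9 genes with an entry in RefSeq's promoter table (GRCh38.p14; 250 bases before each start, 35114 promoters). *INHBB* and *INHBC*, with the largest differences in opposite directions, are shown with each CG dinucleotide in capitals, because the 2 promoters differ widely in that feature.
INHBB, chr2:120345886-120346135, plus strand: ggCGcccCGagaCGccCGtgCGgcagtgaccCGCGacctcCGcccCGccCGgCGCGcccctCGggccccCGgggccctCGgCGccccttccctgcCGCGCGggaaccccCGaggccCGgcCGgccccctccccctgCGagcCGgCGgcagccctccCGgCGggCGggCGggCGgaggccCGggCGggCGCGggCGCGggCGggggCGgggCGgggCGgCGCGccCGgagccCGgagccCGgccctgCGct
INHBC, chr12:57434534-57434783, plus strand: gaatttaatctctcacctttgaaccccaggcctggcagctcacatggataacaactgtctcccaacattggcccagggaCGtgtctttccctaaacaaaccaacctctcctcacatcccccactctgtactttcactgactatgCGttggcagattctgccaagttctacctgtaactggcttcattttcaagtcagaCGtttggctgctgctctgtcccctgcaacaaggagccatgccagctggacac
The *INHBB* promoter had a GC content of 89.6% and 46 CG dinucleotides, beside medians of 58% and 11 over all promoters. The *INHBC* promoter had a GC content of 50.8% and 3 CG dinucleotides. CG counts did not separate the genes by direction. The promoter of *FSTL3*, a gene lower in Hep3B-KD, had 36 CG, and the first promoter of *ACVR1B*, a gene higher in Hep3B-KD, had 48. The second promoter of *ACVR1B* had 4 CG. The TEAD motif GGAATG, searched on both strands, was found once among the promoters of these genes, 226 bases before the start of *ACVR2B*, and in 11.9% of all promoters. The SMAD motif CAGACA was found once before *INHA* and once before the second start of *ACVR1B*, and in 13.6% of all promoters. Neither motif was found in the 250 bases of *INHBB*. No methylation or binding was measured in these cells, and a match or its absence is a description of the letters only.

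The rest of the pathway was followed through 6 lists with 66 genes in all, which were fixed with earlier results of these data known. Of the 43 with sufficient expression, 18 rose, 18 fell and 7 were not called (limma with Benjamini-Hochberg adjustment over all genes, adjusted p under 0.05), with a median log2 difference of 0.12 beside 0.11 over all genes. Over all genes, 36.1% rose and 23.8% fell by the same rule, which is the background for the counts of each list.

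Of 12 other ligands that use activin or related receptors, 3 were sufficiently expressed. *GDF11*, an activin-like ligand of *ACVR2A* and *ACVR2B*, rose from 3.31 ± 0.0981 to 6.42 ± 0.181 FPKM (SD, n = 3; limma, adjusted p = 9.17e-06). The bone morphogenetic protein *BMP4* fell from 12.3 ± 0.849 to 6.89 ± 0.552 FPKM (limma, adjusted p = 0.00011), and *BMP2* fell from 15.1 ± 0.458 to 12.8 ± 0.159 FPKM (limma, adjusted p = 0.00089).

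Of 15 other receptors and coreceptors, 11 were sufficiently expressed, of which 7 rose and 2 fell, with a median log2 difference of 0.48. The coreceptor *TGFBR3* (betaglycan), which presents TGF-β and also binds inhibins, stood at 0.220 ± 0.0411 FPKM in Hep3B-Con and 1.17 ± 0.0710 FPKM in Hep3B-KD. It passed the minimum only through Hep3B-KD, so no p is given for it, and with a minimum mean of 1 FPKM, which leaves it out, 6 receptors rose and 2 fell. The BMP coreceptors *HJV* and *RGMB* rose by 1.34 and 1.10 on the log2 scale. The type II receptors *BMPR2* and *TGFBR2* rose by 0.62 and 0.48, as did the pseudoreceptor *BAMBI* by 0.44 and *BMPR1A* by 0.24, the last of which was not called with quantile normalization or with the libraries centred on their median. *TGFBR1*, the type I TGF-β receptor also called ALK5, fell from 4.88 ± 0.597 to 2.73 ± 0.115 FPKM (limma, adjusted p = 0.000338). *ACVR1*, a type I receptor that binds activin without passing its signal to SMAD2 and SMAD3, fell by 0.33 on the log2 scale from 36.1 ± 0.788 FPKM, a level above that of each of *ACVR1B*, *ACVR2A* and *ACVR2B*.

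Of 12 proprotein convertases and other extracellular inhibitors, 6 were sufficiently expressed, of which 2 rose and 2 fell. *FURIN*, a convertase that cleaves activin precursors, fell from 205 ± 1.45 to 116 ± 3.24 FPKM (limma, adjusted p = 9.08e-07). *CER1*, a secreted antagonist of Nodal and BMP, fell from 85.2 ± 1.26 to 13.8 ± 0.302 FPKM, a log2 difference of -2.62 (limma, adjusted p = 3.82e-08), and came at rank 8 of the decreases. *FURIN* and *CER1* were also searched for matches to the seed of the hairpin, unlike the rest of the lists. *FURIN* held 2 in the coding sequence and 0 in the 3′ UTR, and *CER1* held 0 in either region. Among expressed genes 18.1% had a match in the coding sequence, and an effect of the seed on *FURIN* was not tested. The BMP antagonist *CHRD* rose by 0.52 and the convertase *PCSK6* by 0.27 on the log2 scale. *PCSK5* and *PCSK7* were not called, with log2 differences of 0.12 and 0.12.

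Of 16 SMADs and cofactors, 15 were sufficiently expressed, of which 8 rose and 4 fell. The receptor SMADs of the activin branch went apart. *SMAD3* fell from 18.1 ± 0.366 to 11.7 ± 0.429 FPKM (limma, adjusted p = 1.56e-05), whereas *SMAD2* rose from 1.71 ± 0.0462 to 2.35 ± 0.0784 FPKM (limma, adjusted p = 0.00179). The repressors *SKI* and *TGIF1* fell by 0.42 and 0.65 on the log2 scale. In the BMP branch *SMAD5* fell by 0.26, while *SMAD1* and *SMAD9* were not called, with differences of -0.09 and 0.18. *ZFYVE9*, which anchors SMAD2 and SMAD3 near the receptors, rose by 0.62, and the inhibitory *SMAD6* and *SMAD7* rose by 0.31 and 0.26. *SMURF2*, *SKIL*, *PPM1A* and the common partner *SMAD4* rose by 0.40, 0.38, 0.26 and 0.19, but *SMAD4* was called in 7 of the 16 alternative analyses only and missed the threshold without any 1 of Hep3B-Con 1, Hep3B-Con 3 or the 3 Hep3B-KD libraries (limma, adjusted p = 0.0571 to 0.0716). *PPM1A* was not called with the libraries centred or with quantile normalization.

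Of 12 genes known as SMAD2 and SMAD3 targets, 8 were sufficiently expressed and all 8 were called, with 5 lower, 3 higher and a median log2 difference of -0.43, beside 36.1% higher and 23.8% lower over all genes. *CDKN2B*, a cell cycle inhibitor, fell from 10.9 ± 0.309 to 2.16 ± 0.309 FPKM (limma, adjusted p = 4.6e-06). The transcription factor gene *JUNB* fell from 79.3 ± 15.4 to 28.7 ± 6.15 FPKM (limma, adjusted p = 0.000467), *CTGF* fell from 117 ± 1.32 to 61.5 ± 1.23 FPKM (limma, adjusted p = 4.09e-07), and *TGFBI* fell by 0.21 on the log2 scale. The 3 that rose, *SMAD7*, *SKIL* and *BAMBI*, encode feedback inhibitors of the pathway, while the repressor *TGIF1* fell. *SMAD7*, *SKIL* and *TGIF1* are counted here as well as among the SMADs and cofactors, and *BAMBI* as well as among the receptors. *CTGF* and *JUNB* also respond to other signals. Of 7 targets of the BMP branch, 6 were sufficiently expressed. *ATOH8*, *ID1*, *ID3* and *ID2* fell by 0.53, 0.45, 0.33 and 0.13 on the log2 scale, while *SMAD6* and *SMAD7* rose, as above. With quantile normalization, *ID2* turned to a log2 difference of 0.01 and neither it nor *ID1* was called, and without Hep3B-KD library 3 the adjusted p of *ID1* in limma was 0.0505. *HAMP*, the gene of the iron hormone hepcidin, stayed under the minimum with 13, 9 and 3 reads in Hep3B-Con and 1, 1 and 3 reads in Hep3B-KD.

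**Figure D4:**
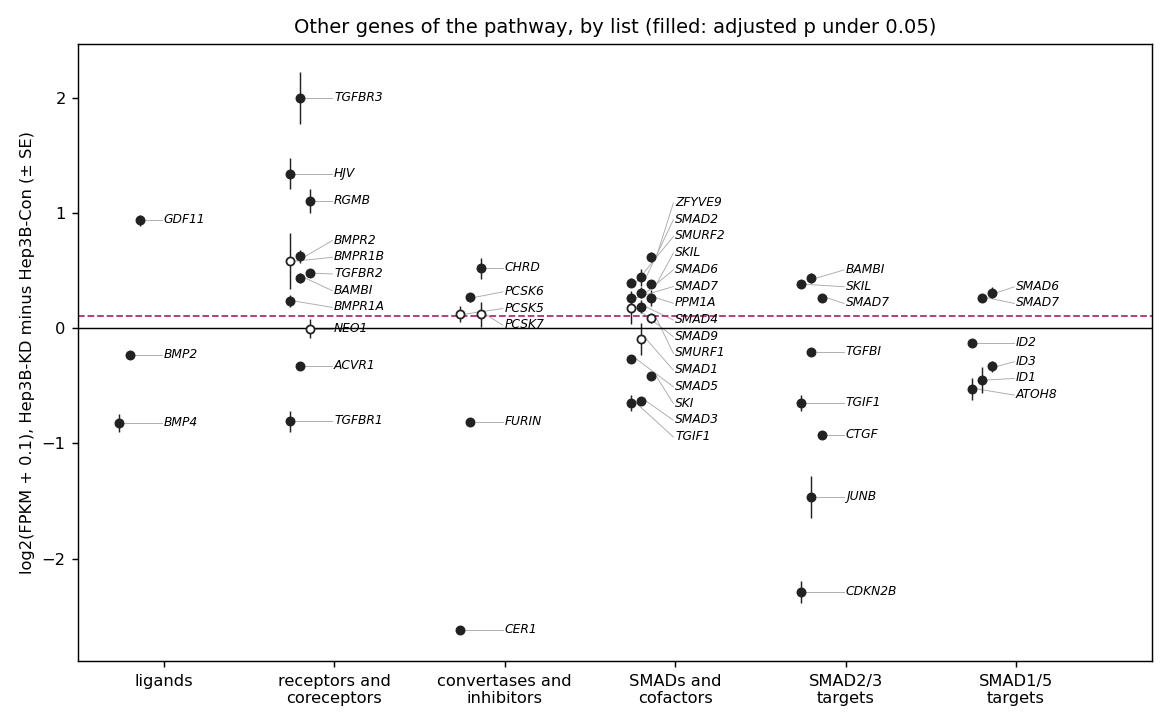
Difference in log2(FPKM + 0.1), Hep3B-KD minus Hep3B-Con, for the sufficiently expressed genes of the 6 lists, with bars of ± SE (n = 3 per group), filled points for an adjusted p under 0.05 in limma and a dashed line at the median of all genes (0.11). Among SMAD2 and SMAD3 targets, *CDKN2B* (-2.29) and *JUNB* (-1.47) lie lowest. Among the receptors *TGFBR3* (2.00), which passed the minimum only through Hep3B-KD, and *HJV* (1.34) lie highest.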

How the data were processed

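RNA sequencing of 3 Hep3B-Con and 3 Hep3B-KD samples was used. Groups and replicate numbers were taken from the sample names. The authors deposited FPKM values (reads per gene length and library size) for 29908 Ensembl genes in 6 columns, with 0 further columns of values. The submitters' processing notes name Bowtie2 2.0.6, TopHat2 2.0.12 and the build GRCh37, whereas all 29908 identifiers were found in GENCODE release 29 (GRCh38), and its exon lengths turned 100% of the deposited FPKM values into whole reads (within 0.01). Coordinates are those of GENCODE release 29. The counting tool and the use of strand are not given in the sources used here.

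The 14221 genes whose 6 libraries averaged 0.5 FPKM or more were compared as log2(FPKM + 0.1) with limma 3.58.1 (lmFit, eBayes with a trend) in R 4.3.3, with Benjamini-Hochberg adjustment over all of them. Folds are ratios of mean FPKM. Differences on this log2 scale understate the change of low genes. The members, the lists and the rule for names were chosen with earlier results of these data known. The rule took all members and list genes, *DAGLA*, the 3 genes after *INHBB* among the decreases and the 5 genes nearest to it. *ALB* and other markers come from 4 cell type lists. *ORC4* and *OBSL1* were named for their position, after their values were seen. *GDF1*, *GDF3*, *BMP10*, *GDF2*, *NOG* and the marker *CD68* were not analysed here, and 2 further genes of the lists are not reported here.

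Alternatives were other filters, pseudocounts and scalings, eBayes without a trend, limma's voom on the recovered reads, the replicate number as a block, and each library left out. Replicate numbers did not pair the samples. The hairpin's target was read from the study's supplement and promoters from RefSeq. Python 3.11.15, pandas 2.3.3, numpy 2.4.6 and matplotlib 3.10.9 were used.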

Additional observations from a re-analysis of the deposited data

How the results depend on the processing

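The number of genes called over all genes was 8521 and ranged from 7801 to 8975 over the 16 alternative analyses, within 1.5 times in each. Leaving out each library in turn gave 7801 to 7915, and limma's voom on the recovered reads gave 8975. The 8 SMAD2 and SMAD3 targets were called in all 16. The log2 difference of *INHBC* ranged from 1.14 to 2.01, that of *INHBE* from -1.42 to -1.19 and that of *FSTL3* from -0.98 to -0.84. *INHA*, with 11 to 28 reads, was left out by a minimum mean of 1 FPKM.

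With the replicate number as a block, 7919 genes were called (replicate block) and *SMAD4* missed the threshold (limma, adjusted p = 0.0538). The deviations of same-numbered samples correlated at -0.0656 to -0.0011, so the numbers were not taken as pairs.

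The number of calls in each list stayed within 1.5 times of the value reported. It was 10 to 12 for the SMADs and cofactors, 8 to 10 for the receptors and coreceptors, and 4 to 6 for the targets of the BMP branch.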
